A study of Mus musculus with 4 samples.

Results

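EpCAM-positive-only regions at gene ends are stretches of open chromatin that were called in both EpCAM-positive libraries of sorted mouse DN3 thymocytes and in neither EpCAM-negative library, and whose summit lay within 1000 bp of the start or end of a RefSeq protein-coding gene. They numbered 378 of 36224 regions in all, or 1.04%. Among the 11431 regions at gene ends of any call pattern they made up 3.31%. Members were chosen by the peak calls themselves, so the calls and the values of the called peaks describe the members and were not tested.

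ATAC-seq was run on thymocytes from the thymus of WT mice, with 2 libraries of the EpCAM-positive fraction and 2 of the EpCAM-negative fraction. DN3 cells were flow-sorted and then separated on a magnetic column with a biotin-coupled antibody against EpCAM. The EpCAM-positive DN3 cells were the ones held by the antibody, and the EpCAM-negative DN3 cells were the ones that passed through without label. The labels do not tie the 2 libraries of a fraction to separate mice, and their p-values then measure a spread that may be technical. Neither the age of the mice nor the purity of the fractions is stated.

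In ATAC-seq a transposase cuts DNA that is not wrapped tightly around nucleosomes, so promoters in use appear as peaks just around the transcription start. Many mammalian promoters lie in CpG islands, which are rich in unmethylated CpG and tend to be open in most cell types, whereas CpG-poor promoters are more often open in a restricted set of tissues. DN3 thymocytes are double-negative precursors that rearrange the T cell receptor beta locus and carry a pre-T cell receptor, and EpCAM is a homophilic adhesion molecule best known from epithelia, including the thymic epithelium.

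To show what the DNA of such promoters looks like, the 250 bases before the start of 4 genes are printed 5' to 3' on the strand of the gene, from the RefSeq promoter table of build GRCm38.p6. They were taken in rank order from members that had their summit within 250 bp before a listed start of their gene, keeping those where the printed stretch lay outside every protein-coding gene, their own included. They differ widely in CpG content. Plekhm2 encodes an adaptor that couples lysosomes to kinesin, Gimap7 a GTPase of the immunity-associated family of lymphocytes, Npdc1 a neural membrane protein and Spsb4 a substrate receptor of a ubiquitin ligase. Capitals mark the GC box GGGCGG on either strand, so that CCGCCC is the same word read on the opposite strand. The stretches are chr4:141664147-141664396 on the minus strand for Plekhm2, chr6:48718371-48718620 on the plus strand for Gimap7, chr2:25402800-25403049 on the plus strand for Npdc1 and chr9:97018356-97018605 on the minus strand for Spsb4.
Plekhm2: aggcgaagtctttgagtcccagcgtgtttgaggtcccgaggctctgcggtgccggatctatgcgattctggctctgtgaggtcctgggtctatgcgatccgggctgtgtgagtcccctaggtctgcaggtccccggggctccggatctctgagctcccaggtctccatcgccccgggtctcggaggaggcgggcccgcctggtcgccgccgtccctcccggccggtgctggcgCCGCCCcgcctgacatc
Gimap7: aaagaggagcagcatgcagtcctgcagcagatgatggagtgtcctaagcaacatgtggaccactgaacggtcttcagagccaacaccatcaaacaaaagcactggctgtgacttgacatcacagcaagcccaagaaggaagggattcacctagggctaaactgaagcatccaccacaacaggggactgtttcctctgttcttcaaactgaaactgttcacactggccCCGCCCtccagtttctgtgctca
Npdc1: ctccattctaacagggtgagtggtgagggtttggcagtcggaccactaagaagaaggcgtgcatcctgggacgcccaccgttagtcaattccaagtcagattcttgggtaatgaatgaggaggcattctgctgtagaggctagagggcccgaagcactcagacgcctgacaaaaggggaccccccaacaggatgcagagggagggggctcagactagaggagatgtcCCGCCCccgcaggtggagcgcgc
Spsb4: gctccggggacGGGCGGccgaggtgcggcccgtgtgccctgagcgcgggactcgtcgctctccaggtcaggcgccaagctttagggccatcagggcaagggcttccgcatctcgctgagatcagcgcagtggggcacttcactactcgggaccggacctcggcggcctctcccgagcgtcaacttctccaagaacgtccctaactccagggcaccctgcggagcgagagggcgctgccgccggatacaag

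The Gimap7 stretch held 2 CpG dinucleotides, an observed-over-expected ratio of 0.125, with a GC content of 50.8%. In Npdc1 the ratio was 0.480 and the GC content 58.4%. Plekhm2 and Spsb4 had CpG-rich stretches, with ratios of 0.777 and 0.889 and GC contents of 68.8% and 68.4%. Each stretch held 1 GC box and neither CCAAT nor the NRF1 word GCATGCGC. The called region covered all 250 bases in Plekhm2, Gimap7 and Spsb4 and 135 of them in Npdc1, where the summit lay 246 bp before the start. In the other 3 genes the summit lay 123 bp (Plekhm2), 144 bp (Gimap7) and 133 bp (Spsb4) before it. All 4 were small peaks. Their summits were covered by 14 fragments in each EpCAM-positive library for Plekhm2, 14 and 9 for Gimap7, 12 and 13 for Npdc1 and 13 and 16 for Spsb4, in replicates 1 and 2. The nearest EpCAM-negative peak was 9138 bases away for Gimap7 and 20041 to 64416 bases away for the others.

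Each library had 1 deposited peak list, of 26029 and 29030 peaks for the EpCAM-positive fraction, against 24598 and 25924 peaks for the EpCAM-negative fraction. The lists give no read totals. The lowest background of a list, a relative measure of depth solved from the deposited folds and p-values, was 0.388 and 0.383 fragments in the EpCAM-positive libraries, against 0.290 and 0.286 in the EpCAM-negative libraries, a ratio of 1.34. The EpCAM-positive libraries thus had the greater depth by this measure, and counts scaled for it are given with the number of members. Of 12 genes that mark the DN3 stage, 6 and 7 had a peak at an end in the EpCAM-positive libraries, against 10 and 7 in the EpCAM-negative libraries. Bcl11b, Cd3e, Cd3g, Il2ra and Notch1 had one in all 4 libraries and Notch3 in none. Of 6 thymic epithelial markers, Aire and Cldn4 had a peak in each of the 4 libraries, and Foxn1, Krt5, Krt8 and Psmb11 had none in any. The 6 B cell markers had 0 and 0 such peaks in the EpCAM-positive libraries, against 0 and 1 in the EpCAM-negative libraries. These counts use the summit of each peak. The marker with that peak, Ebf1, had a region called in all 4 libraries at its end, so the site was not private to 1 fraction. The 6 myeloid and dendritic markers had 1 and 1, against 2 and 1. The 5 NK cell markers had 0 and 1, against 1 and 1, and the 4 gamma-delta T cell markers had 2 in each library. The 5 markers of the double-positive stage had 2 and 2, against 1 and 2, and the 4 erythroid markers 0 and 0, against 1 and 0. No marker gene of the DN3 stage or of other cells had a member at an end, and their part in the results was not tested.

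Regions private to a fraction lay at gene ends more often in the EpCAM-positive than in the EpCAM-negative direction. Of 1594 EpCAM-positive-only regions, 378 were at gene ends, 23.7% with an exact Clopper-Pearson 95% interval of 21.6% to 25.9%. Of 623 EpCAM-negative-only regions, 52 were, 8.35% with an interval of 6.30% to 10.8%. The intervals cover counting error only and are given as a description. The 4 mixed patterns, called in exactly 1 library of each fraction, fell between: 89 regions and 18.9% for replicates 1 and 1, 75 and 15.8% for EpCAM-positive replicate 1 with EpCAM-negative replicate 2, 116 and 17.9% for EpCAM-positive replicate 2 with EpCAM-negative replicate 1, and 125 and 13.5% for replicates 2 and 2. Regions called in all 4 libraries were at gene ends in 8038 of 16761 cases, 48.0%. The 378 members were 7.27 times the 52 EpCAM-negative-only regions at gene ends. That ratio changed with the setting. It was 4.38 with the lists trimmed to equal length (280 against 64 regions) and 3.19 with the EpCAM-positive fragments scaled to the EpCAM-negative background (284 against 89 regions). A scaling of p-values for depth, chosen after seeing the data, gave 6.45 (355 against 55 regions). It was 7.40 and 5.55 without EpCAM-positive replicates 1 and 2, and 2.35 and 2.30 without EpCAM-negative replicates 1 and 2. Dropping a library leaves 1 call to define 1 fraction and 2 the other, so these ratios also changed through the rule itself.

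**Figure D1:**
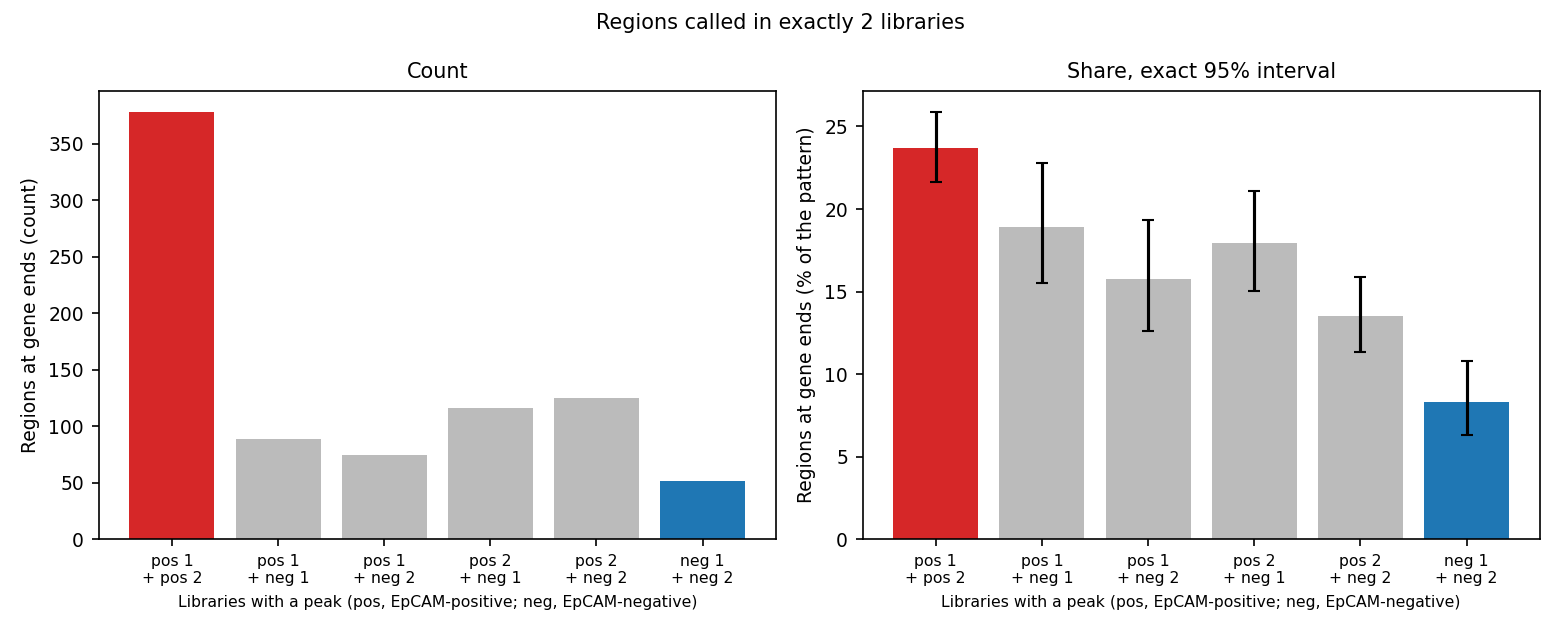
Regions called in exactly 2 of the 4 libraries, by which libraries had the peak (x axis). The left panel gives the count of such regions at gene ends and the right panel their share of all regions of that pattern in percent, with exact 95% intervals as bars. The EpCAM-positive-only bar (378 regions, 23.7%) is the highest in both panels, the EpCAM-negative-only bar (52 regions, 8.35%) the lowest, and the 4 mixed patterns (75 to 125 regions) lie between.

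Over whole lists, the share of peaks at gene ends did not separate the fractions. The share of peaks with their summit at a gene end was 40.2% and 38.2% in the EpCAM-positive libraries, against 40.5% and 39.0% in the EpCAM-negative libraries, means of 39.2% ± 1.41 and 39.7% ± 1.09 (SD, n = 2 each). The fractions overlapped, and the difference of -0.554 percentage points had a two-sided exact permutation p of 0.667, where 2 libraries against 2 cannot go below 0.333. In number, 10410 and 10575 genes had a peak at an end in the EpCAM-positive libraries, against 9904 and 9878 in the EpCAM-negative libraries. Both EpCAM-positive values were above both EpCAM-negative values (exact permutation p = 0.333, the smallest possible).

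Members were mostly promoter-side. Strand was listed for the genes of 288 members, of which 245 (85.1%, exact interval 80.4% to 89.0%) lay at the 5' end of the gene and 43 at the 3' end. For the other 90 the strand was not listed. The share at the 5' end was 82.9% (34 of 41, interval 67.9% to 92.8%) for EpCAM-negative-only regions, 76.5% to 93.7% over the mixed patterns and 96.1% for regions called in all 4 libraries. Relative to transcription, 229 of the 245 had the summit within 1000 bp of a listed start of their own gene. Of these, 153 lay downstream of it and 76 upstream, and 143 were within 250 bp. Where in the exons and introns the summits fell was not analysed here.

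**Figure D2:**
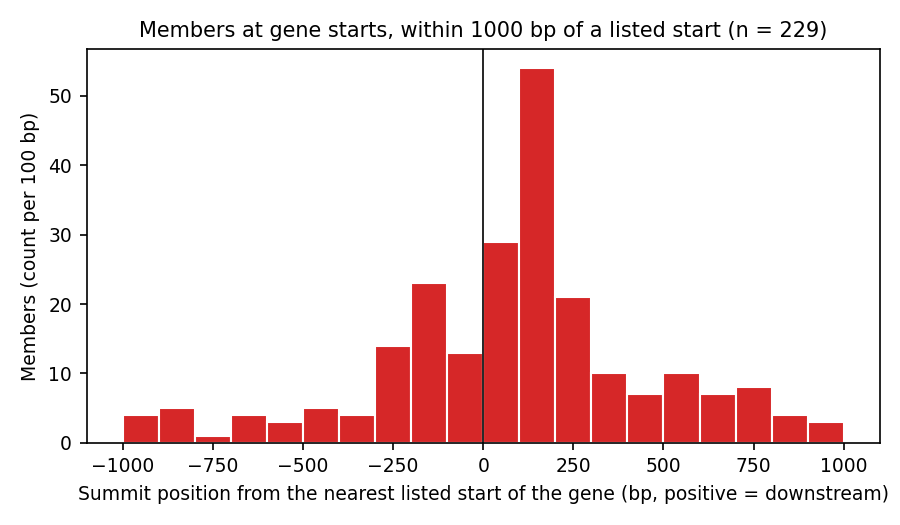
Position of the summit of 229 members relative to the nearest listed transcription start of their own gene, in 100-bp bins (x axis, bp, positive values downstream). The y axis counts members; 153 summits lie downstream of the start and 76 upstream, with the most in the bin from 100 to 200 bp downstream.

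The 378 members touched the ends of 398 genes. In 269 the summit lay inside the nearest gene and in 109 outside it, and 25 lay at the ends of 2 genes at once. Members were 240 to 953 bp wide with a median of 365.5 bp, against 308 bp for EpCAM-negative-only regions and 772 bp for regions called in all 4 libraries, both at gene ends. They were spread over 20 chromosomes, with 10 to 35 each, of which X carried 11, and Y carried none.

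The peaks behind the members were small. Summit fragments, the number of fragments stacked over the summit, ranged from 5 to 60 in EpCAM-positive replicate 1 and from 5 to 67 in replicate 2, with a median of 12 in both. Regions called in all 4 libraries at gene ends had medians of 42 and 42 in the EpCAM-positive libraries, against 34 and 32 in the EpCAM-negative libraries. EpCAM-negative-only regions at gene ends had medians of 10 and 9 in their own libraries. Scaled to the lower EpCAM-negative background, the members' median became 8.97 in each library. The fold over local background, the authors' own value for each peak, had medians of 5.46 and 5.51 in members, against 11.0 and 11.5 for regions of all 4 libraries in the same EpCAM-positive lists. Absence of a call in the EpCAM-negative libraries means that no peak reached the caller's threshold there; no level was recorded, so no fold between the fractions can be given.

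Both EpCAM-positive libraries gave similar heights. Members had to be called in both, so this closeness is partly set by the rule and is given as a description. Replicate 1 was higher in 167 members, replicate 2 in 157, and 54 had equal numbers. The libraries differed by 3 fragments or fewer in 272 members and by more than 10 in 8. Their summits lay within 100 bp of each other in 265 members, with a median distance of 55.5 bp. Most members, 255, had 8 to 20 fragments in both libraries, and 15 had more than 30 in both. The local background split them further. In 276 members (73.0%) it was under 2 fragments in both libraries, with median heights of 11 and 10 fragments and median folds of 5.68 and 5.76. In 25 members it was over 5 in both, with median heights of 35 and 32 fragments and median folds of only 3.85 and 3.68. The tallest member of all, at the 3' end of Jund, was of that kind.

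**Figure D3:**
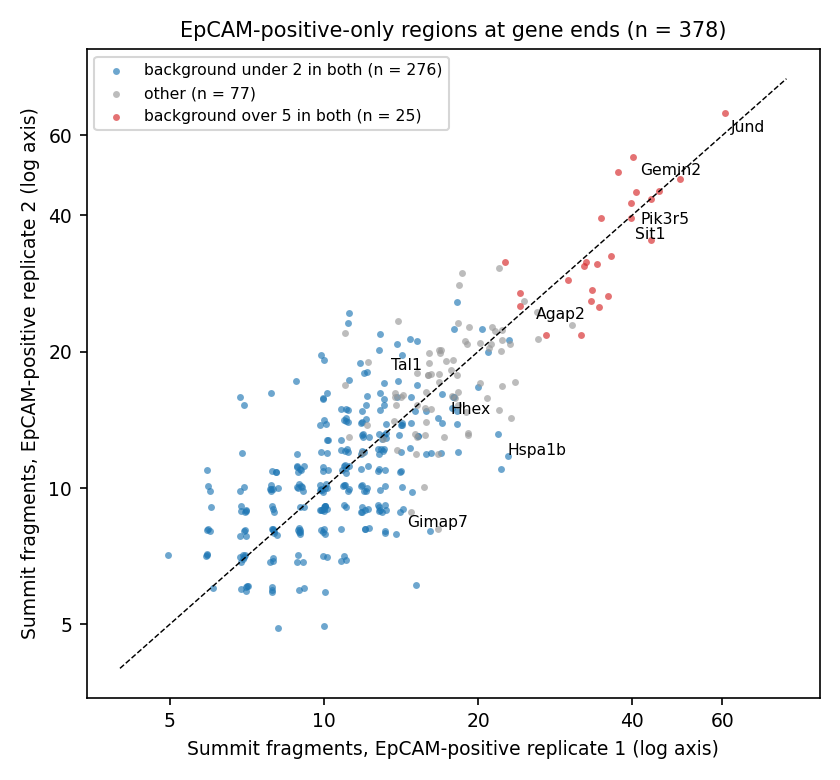
Summit fragments of the 378 members in EpCAM-positive replicate 1 (x axis) and replicate 2 (y axis), both on log axes, with a small random shift so that equal whole numbers do not hide each other; colours give the local background in both libraries and the dashed line marks equal values. Most points lie between 8 and 20 fragments, and the 25 members with a background over 5 form the upper end, with Jund at 60 and 67 fragments.

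Members differed widely in their distance to EpCAM-negative peaks. The nearest EpCAM-negative peak was a median of 8924.5 bases away, and more than 10000 bases away for 179 members. It was within 500 bases for 77 (20.4%). An EpCAM-negative summit lay within 1000 bp of the same gene end for 81 members (21.4%), so that for these the end was open in at least 1 EpCAM-negative library at a neighbouring position. For the other 297 (78.6%) no EpCAM-negative summit was at that end. That count goes by summits only and does not mean that the end was closed. Itm2c, Jdp2 and Mien1 are among the 297, yet a region called in all 4 libraries was at the same end. With an additional requirement that no EpCAM-negative peak came within 500 bp, 301 members and 40 EpCAM-negative-only regions remained. The members with a background under 2 had a median distance of 15076 bases and those with a background over 5 of 739 bases, and 10 of the 25 with the higher background had an EpCAM-negative peak within 500 bases. Of the 52 EpCAM-negative-only regions at gene ends, 12 had an EpCAM-positive peak within 500 bp.

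**Figure D4:**
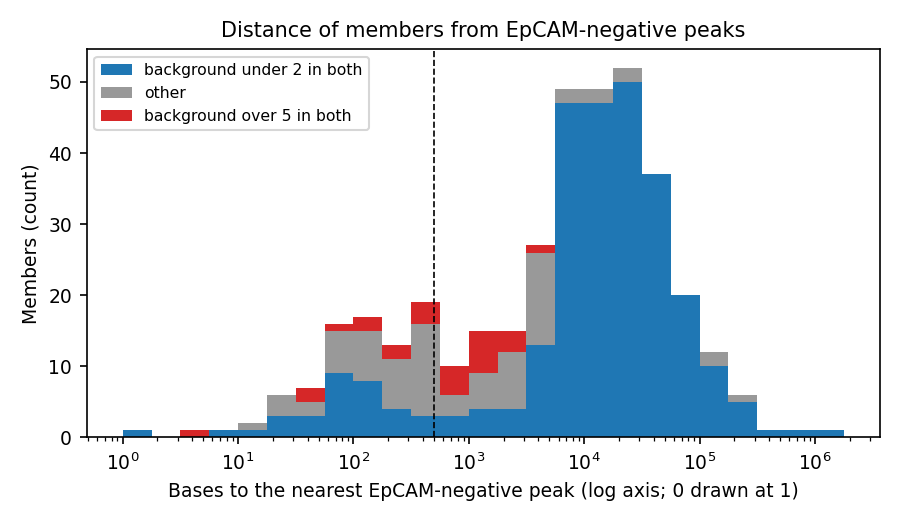
Number of members (y axis) by the bases between the member and the nearest peak of either EpCAM-negative library (x axis, log scale, 0 drawn at 1), stacked by local background. The dashed line marks 500 bases, below which 77 of 378 members lie; the members with a background under 2 in both libraries gather at the larger distances, with a median of 15076, and those with a background over 5 have a median of 739.

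Many members were not the only open site of their gene. In 143 cases (37.8%) the gene had another region called in all 4 libraries within its body or 1000 bp of an end, in 47 at the same gene end. In 134 cases (35.4%) the gene had no other region of any kind with its summit in that reach. A peak beyond that reach can still lie close to the member. At Muc1, 1 of these genes, an EpCAM-negative peak was 243 bases away. In 10 cases the gene also held an EpCAM-negative-only region and in 21 a further EpCAM-positive-only one. At gene ends alone, 41.2% of the 21883 protein-coding genes had a region called in all 4 libraries, 1.82% had a member and 0.27% an EpCAM-negative-only region. The 41.2% leaves out regions inside gene bodies, so it is not a like comparison for the 37.8%. The shares of all genes with such a region in the body, or with no region, were not counted.

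Among the 25 members that ranked highest by the lower of their EpCAM-positive −log10 q values, 15 lay at the 5' end, 5 at the 3' end and 5 at genes with no strand listed, with 12 to 54 fragments. These values chose the 25 and are given as a description. Of their genes, 12 had another region in all 4 libraries and 5 had no other region, and 7 of the 25 had an EpCAM-negative peak within 500 bases.

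Highest of all was a region 803 bp beyond the 3' end of Ap3m1 (chr14:21032065-21032544, mm10), the gene of the medium subunit of the AP-3 adaptor complex that sorts cargo to lysosomes. It had 23 and 21 fragments in EpCAM-positive replicates 1 and 2, folds of 11.7 and 11.2, and lay 19304 bases from the nearest EpCAM-negative peak. Sit1, a transmembrane adaptor that dampens signalling from the T cell receptor, had a member 14 bp inside its 3' end (chr4:43481937-43482259) with 39 fragments in each library and an EpCAM-negative peak 1255 bases away. Agap2 and Nlrx1, next in rank, encode a GTPase-activating protein that enhances phosphoinositide 3-kinase signalling and a mitochondrial NOD-like receptor. Agap2 (chr10:127075228-127075623) had 25 and 26 fragments, 172 bp inside the 5' end of its gene record. For Nlrx1 (chr9:44267854-44268268) the counts were 20 and 22, and this was the gene's only region. The replicates lay within 2 fragments of each other in these 4 members, which were ranked by the lower −log10 q of the 2 libraries.

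Pik3r5, the regulatory subunit of the class IB phosphoinositide 3-kinase, had 40 and 42 fragments 95 bp inside its start (chr11:68431842-68432532), next to 4 regions of all 4 libraries in the gene. Rragd, a Rag GTPase that links amino acids to mTORC1, had 22 and 30 fragments 324 bp before its start (chr4:32982513-32982877). An EpCAM-negative summit was at the same end of Rragd, with the nearest EpCAM-negative peak 897 bases away. Laptm5, a lysosomal protein of blood cells that lowers surface antigen receptors, had 38 and 50 fragments (chr4:130913242-130913695), 168 bases from an EpCAM-negative peak. Gemin2, part of the SMN complex that assembles spliceosomal particles, reached 40 and 54 fragments 85 bp inside its start (chr12:59013400-59013665). Zdhhc5, a palmitoyl transferase, had 46 and 45 fragments (chr2:84715772-84716043) but lay only 5 bases from an EpCAM-negative peak, and another region in all 4 libraries was at the same end. An EpCAM-negative peak nearby and a region in all 4 libraries at the same end were also found for a member inside the carbonic anhydrase-related Car11, 422 bp before its 3' end and within 1000 bp of an end of Dbp, a clock-controlled transcription factor (50 and 48 fragments, 250 bases from an EpCAM-negative peak). Zinc importer Slc39a1 (17 and 19 fragments, 65 bases) and crystallin gene Crygn (21 and 20 fragments, 81 bases) were also of this kind. By contrast Osbp2, an oxysterol-binding protein, had 15 and 21 fragments, and Sgsm3, a GTPase-activating protein for Rab proteins, 13 and 22, with the nearest EpCAM-negative peak 28835 and 28855 bases away. In both, replicate 2 was the higher.

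Sox6, a transcription factor of cartilage, muscle and red cell development, had 18 and 16 fragments 52489 bases from any EpCAM-negative peak, and its gene held 1 region called in all 4 libraries. Antxr1, an anthrax toxin receptor of vessels and stroma, had 12 and 14, and its gene held 3 such regions. Lrrc23, a radial spoke protein of cilia and flagella, had 18 and 26, and Wdr35, a subunit of the intraflagellar transport complex, 18 and 14. Ddx43, a germline DEAD-box helicase, had 13 and 16. Fjx1, the mouse four-jointed homologue, had 18 and 16. No other region was called in Fjx1 or Wdr35, and Lrrc23 and Ddx43 held none called in all 4 libraries. The distances of all these members to the nearest EpCAM-negative peak, other than that of Lrrc23 at 9876 bases, were 46636 bases (Ddx43) to 62196 bases (Antxr1). Others of the 25 were Rasgef1c, a Ras exchange factor (20 and 17 fragments, 35 bases from an EpCAM-negative peak), Limd1, a LIM-domain protein of Hippo signalling (18 and 22, 141 bases), Ccdc188 with the palmitoyl transferase Zdhhc8 (21 and 20), and the gamma protocadherin Pcdhgb6 (18 and 15).

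Of 492 genes on 21 lists of thymocyte biology, 18 had a member. The lists and members were chosen with earlier results of these data known, so their counts are a description beside the 1.82% of all protein-coding genes.

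T cell receptor signalling was represented by 4 of 49 genes (8.16%), among them Sit1, Cd6 and Lcp2, against 1 gene, Ptcra, with an EpCAM-negative-only region and 30 with a region in all 4 libraries. Cd6, a scavenger-receptor family co-receptor, had 17 and 14 fragments (chr19:10788143-10788721). Lcp2, the adaptor SLP-76, had 13 and 13 (chr11:34047162-34047530), and its gene held 2 further regions of all 4 libraries. In the phosphoinositide 3-kinase list 2 of 30 genes had a member, Agap2 and Pik3r5. Both had close values in the replicates, and neither had an EpCAM-negative summit at the same end.

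Progenitor legacy factors, transcriptional regulators of stem and progenitor cells that are shut down as thymocytes commit, held 3 members in 21 genes (14.3%), and 6 of the 21 had a region in all 4 libraries. Hhex, a homeobox factor of early progenitors, had 17 and 16 fragments 372 bp before its start (chr19:37434296-37434906). It was the only region of the gene, and the nearest EpCAM-negative peak was 34117 bases away. Tal1, a basic helix-loop-helix factor of blood stem cells, had 13 and 20 fragments (chr4:115057085-115057456), with the nearest EpCAM-negative peak 39170 bases away. Lmo2, the LIM-only partner of Tal1, had 14 and 10 fragments 770 bp outside its gene (chr2:103982467-103982711), 11717 bases from an EpCAM-negative peak. Lyl1, a close relative of Tal1, was on the other side, with an EpCAM-negative-only region of 20 and 25 fragments in EpCAM-negative replicates 1 and 2. The nearest EpCAM-positive peak to the Lyl1 region was 1186 bases away. The list thus had regions private to each fraction.

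In the Notch list 2 of 35 genes had a member, the ligand gene Jag2 with 16 and 15 fragments and the target gene Hes1 with 33 and 27. Each had an EpCAM-negative summit at the same end, and the nearest EpCAM-negative peaks were 669 and 1091 bases away. A region called in all 4 libraries was also at the same end of Hes1, but not of Jag2. Tox, a factor of CD4 lineage development, was the only one of 34 T lineage transcription factors, with 22 and 22 fragments, 63 bases from an EpCAM-negative peak and with an EpCAM-negative-only region elsewhere in the gene. A region called in all 4 libraries was at the same end of Tox. Socs3, the feedback inhibitor of cytokine receptors, was the only one of 39 genes of cytokine receptors and JAK-STAT signalling, with 32 and 31 fragments (chr11:117969607-117970041) with the nearest EpCAM-negative peak 3654 bases away.

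The list of AP-1, immediate early and stress genes had 2 members in 44 genes, against 37 with a region in all 4 libraries. At the 3' end of Jund, an AP-1 subunit, the counts of 60 and 67 fragments were the highest of any member, on a high background that gave folds of only 2.44 and 3.09. Hspa1b, an inducible Hsp70 chaperone, had 22 and 13 fragments and an EpCAM-negative peak 42 bases away; its replicates were unlike. Chromatin regulators had 2 in 60, Arid1b, a BAF complex subunit (20 and 21 fragments), and Tet1, which oxidises 5-methylcytosine (11 and 10). Both had an EpCAM-negative summit at the same end. The V(D)J recombination list had 1 in 17, the repair factor Trp53bp1 (10 and 10 fragments), and 1 with an EpCAM-negative-only region, Rag1.

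Lists without any member included adhesion, migration and EpCAM partners (0 of 40 genes), cell cycle and DNA replication (0 of 42), apoptosis and survival (0 of 29), glycolysis and nutrient uptake (0 of 22), the DN3 stage markers (0 of 12) and the 7 marker lists of other cells. A region in all 4 libraries was present at the ends of 19 of the 40 adhesion genes, 34 of the 42 cell cycle genes, 17 of the 29 apoptosis genes and 16 of the 22 glycolysis genes, against 41.2% of all genes. The DN3 markers Ptcra and Rag1 had an EpCAM-negative-only region. At Ptcra, the pre-T cell receptor alpha chain, it lay 96 bp from the start with 14 and 16 fragments in EpCAM-negative replicates 1 and 2, and an EpCAM-positive peak was 26 bases away. At Rag1, a subunit of the recombinase, it lay 941 bp from the 3' end with 7 and 4 fragments, and the nearest EpCAM-positive peak was 12210 bases away.

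Gene families, taken by the start of their symbols, varied around the 1.82% of all genes, and the families described were picked after their counts were seen. No EpCAM-negative-only region lay at the 41 genes with a symbol that starts with Tnf, and 5 of these genes (12.2%) had a member. They were Tnfrsf18, the costimulatory receptor GITR, with 18 and 16 fragments, Tnfsf11, the ligand RANKL that matures medullary thymic epithelium, with 15 and 18, Tnfrsf8 with 11 and 12, Tnfsf9 with 10 and 10, and Tnfrsf23, a decoy receptor, with 7 and 7. Tnfsf11 and Tnfrsf8 had an EpCAM-negative summit at the same end and the other 3 had none. Genes with a symbol that starts with Ube or Usp had 6 in 99 (Ube2l6, Ube2ql1, Ube2r2, Usp36, Usp43 and Usp46), with 8 to 18 fragments. The protocadherins, cell adhesion genes of neurons, had 3 in 69 (Pcdhgb5, Pcdhgb6 and Pcdhgc4), where only 2 of the 69 had a region in all 4 libraries. Solute carriers had 10 in 389 (2.57%), close to the background. Zinc finger genes with a Zfp symbol had 3 in 400 (0.75%), of which 243 had a region in all 4 libraries. No member lay at any of 94 potassium channel genes with a Kcn symbol, 51 proteasome genes, 24 Dusp phosphatase genes, 18 Ccr and Cxcr chemokine receptor genes or 17 Klf genes. The 2 members among the 101 symbols that start with Rpl or Rps were at the kinase genes Rps6ka4 and Rps6kl1, and no cytosolic ribosomal protein gene of those symbols had one. Mitochondrial ribosomal protein genes had 1 in 78, Mrpl58, with 18 and 28 fragments.

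Developmental regulators outside these lists, named after their values were seen, also had members. At Hoxa13, a homeobox gene of limb and urogenital patterning, the counts were 13 and 12 fragments 38 bp inside its start. Mixl1 and Gsc, homeobox genes of the gastrulating embryo, had 11 and 15 fragments each. Mesp1, of early heart mesoderm, had 12 and 10, and Gsx1, of the forebrain, 13 and 9. None of these 5 genes had any other region, and each lay 6324 or more bases from an EpCAM-negative peak. Hlx, a homeobox gene of liver and blood cells, had 16 and 14 fragments 535 bases from an EpCAM-negative peak at the same end. Immune genes named in the same way were Pdcd1, the inhibitory receptor PD-1, with 13 and 9 fragments 154 bp inside its start and 16550 bases from any EpCAM-negative peak, the SLAM-family gene Ly9 with 11 and 11, and Tbx21, the Th1 factor T-bet, with 10 and 10, only 78 bases from an EpCAM-negative peak.

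Some genes carried 2 members. Rfx1, a transcription factor of ciliogenesis and immune genes, had neighbouring intervals 686 and 946 bp inside the 5' end of its gene record. The first had 36 and 32 fragments and the second 35 and 39. Their summits lay 2586 and 2326 bp before the nearest listed start of the gene. Lonrf3, a RING finger gene on X, had 14 and 11 and 11 and 13 fragments, and Thegl 7 and 12 and 7 and 7 in intervals that touch. In each of these genes the members lie beside each other and are not independent. Prss57, a neutrophil granule protease, had members within 1000 bp of its ends that lay nearer to other genes, 1 with 19 and 30 fragments 120 bp inside the start of Palm and 1 with 43 and 35 fragments 313 bp inside the 3' end of Fstl3, and 1700066B19Rik had 12 and 12 at 1 end and 12 and 11 at the other.

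At the limit of 1000 bp the members just inside were Tubb2b at 998 bp (18 and 23 fragments), Cacna1b at 997 bp (10 and 10) and Wnk1 at 995 bp (32 and 31). The EpCAM-positive-only regions just outside were Gm12447 at 1002 bp (9 and 12), Mynn at 1015 bp (45 and 42) and Zbtb7b at 1016 bp (16 and 24).

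The DNA of member promoters was not used by the rule. Promoters of 300 bases were listed for 227 genes with a member at the start. Their median CpG observed-over-expected ratio was 0.743 and their median GC content 63.3%, and 145 (63.9%) had a ratio over 0.6, a usual mark of CpG islands. Promoters with a region called in all 4 libraries (n = 6054) had a median ratio of 0.813, and 83.6% were over 0.6. Those of EpCAM-negative-only regions (n = 32) had 0.558 and 43.8%, and those of mixed regions (n = 234) had 0.716 and 66.2%. Promoters with no peak in any library (n = 10060) had 0.230 and 14.5%. Member promoters were therefore mostly CpG-rich, less so than the shared promoters, and close to the mixed ones, which had the same number of calls. The 54 with an EpCAM-negative summit at the same end had a median ratio of 0.828, and the 173 without one 0.706.

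**Figure D5:**
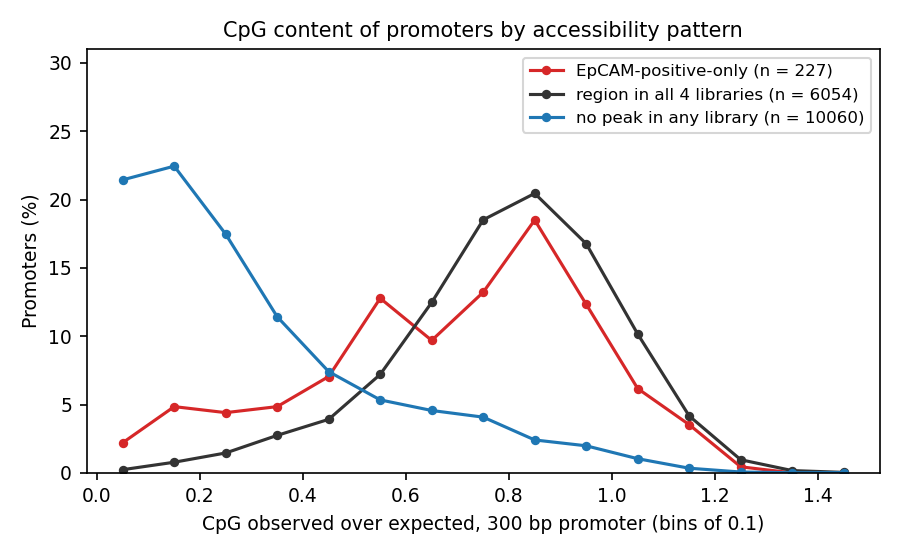
CpG observed-over-expected ratio of 300-base promoters (x axis, bins of 0.1, the last point holding all at 1.4 or more) and the percent of promoters in each bin (y axis), for genes with a member at the start (n = 227), a region called in all 4 libraries (n = 6054) and no peak in any library (n = 10060). Member promoters peak with the shared promoters at high CpG, with 63.9% over 0.6 against 83.6%, and have more at low CpG; promoters without a peak lie mostly at low CpG, with 14.5% over 0.6.

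Words bound by common promoter factors were counted on both strands, as letters and not as binding sites. The GC box GGGCGG of SP and KLF factors was in 71.8% of member promoters, against 71.6% of those with a region in all 4 libraries. It was in 35.7% of all 32851 promoters in the table. That table was not limited to protein-coding genes, of which 17491 had a strand in it. All promoters are therefore not a like set for the members, which were taken at protein-coding genes. Other words of constitutive promoters were less frequent in members than in shared promoters. The ETS word CCGGAAGT was in 3.96% against 10.1% (3.89% of all), NRF1's GCATGCGC in 2.20% against 6.99% (2.71% of all), YY1's ATGGCGGC in 0.441% against 6.31% (2.24% of all), the CREB and ATF word TGACGTCA in 0.441% against 4.31% (1.79% of all) and NF-Y's CCAAT in 31.7% against 41.3% (37.4% of all). In these 5 words the members were near or below the level of all promoters. Some words of lymphoid factors were near the level of all promoters, with RUNX's TGTGGTT in 5.29% (3.37% of shared, 5.27% of all), the E-box CAGCTG in 15.0% (13.7%, 16.3%), the E-box CACCTG in 22.5% (16.5%, 20.2%), TCF/LEF's CTTTGAA in 3.96% (3.22%, 5.14%) and the RBPJ word GTGGGAA in 6.17% (5.67%, 6.38%). The GATA word AGATAA was below that level, in 3.08% of member promoters, 5.09% of shared and 11.2% of all. TATAAA was also below it, in 8.81%, 6.03% and 13.6%. The AP-1 word TGANTCA stood in 4.41%, 3.67% and 7.81%, and the STAT word TTCNNNGAA in 5.29%, 6.34% and 8.30%. For E2F's TTTCCCGC the shares were 0.881%, 2.56% and 1.07%, and for NF-kappaB's GGGATTTC 1.76%, 1.02% and 0.956%. No word searched is contained in another, although neighbouring matches can share bases. Each promoter was counted once per word, and the GC box is the word whose share in members stood far above that of all promoters, as it also did in shared promoters.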

How the data were processed

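Members and gene lists were chosen with earlier results of these data known. The submitters' processing notes list, in no stated order, Trim Galore, Trimmomatic, FastQC, Bowtie2, Picard, SAMtools, bedtools, MACS3 and deepTools, and build mm10 (GRCm38) of the mouse genome. What each tool did, its version, the caller's settings, duplicate removal and a transposase offset correction were not given in the sources used. The deposited lists, 1 per library and so not pooled, give each peak a position, a display score, a fold (ratio) over local background, a −log10 p, a −log10 q and the summit as an offset from the peak start, all made by the authors' peak caller. The lists hold 24598 to 29030 peaks, and no read total, so depth is known only as a relative background.

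Summit fragments and local background were solved from each deposited fold and −log10 p, with 1 added to both terms of the fold, a Poisson p-value and a tolerance of 0.01 on −log10 p. The caller may have stacked fragments or reads, which is not stated. No member was left unsolved. The step was checked on simulated peaks.

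Overlaps of at least 1 bp merged peaks into regions, on chromosomes 1 to 19, X and Y. A region's summit is that of its peak with the highest fold. Gene ends come from 21883 protein-coding genes of RefSeq GRCm38.p6, with strand for 17491 of them from the RefSeq promoter table. A gene end is called a start or a 3' end only where strand is listed. Promoters are 250 bases before to 50 after a listed start. Genes were named by rule: the 25 members highest by the lower −log10 q of their libraries, members at genes of the lists, genes with 2 members and those nearest the 1000 bp limit. Some members that the rule names are not reported here. Members outside that rule are said to be named after their values were seen. Shares have exact Clopper-Pearson 95% intervals for counting error only. Alternatives changed the distance, the merging, the summit, the absence rule, the list length, the threshold, the depth scaling and each library in turn. Python 3.11.15, pandas 2.3.3, numpy 2.4.6, scipy 1.17.1 and matplotlib 3.10.9 were used.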

Additional observations from a re-analysis of the deposited data

How the results depend on the processing

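Under every alternative run, EpCAM-positive-only regions had a higher share at gene ends than EpCAM-negative-only ones. With summits within 500 bp the shares were 15.7% (251 members) and 6.26%, and within 2000 bp 30.0% (478 members) and 13.0%, with 80.1% of members at a gene start. With depth-scaled fragments the shares were 27.7% and 8.44%. A further scaling of p-values, chosen after seeing the data, left 355 members. Members numbered 399 when merging needed an overlap of 50% of the shorter peak, and 378 with the summit taken by −log10 q. The stricter threshold, a −log10 q of 2.07 in all lists, also left 378, but it could not remove a member. The lowest −log10 q of members was already 2.38 and 2.26 in EpCAM-positive replicates 1 and 2. Leaving out each library in turn gave 707 to 1198 members, shares of 20.7% to 26.3% for EpCAM-positive-only and 9.79% to 13.6% for EpCAM-negative-only regions, since fewer calls then define a pattern. The difference in the share of each list's peaks at gene ends ranged from -1.55 to 0.441 percentage points over these settings, and turned positive (0.441) when EpCAM-positive replicate 2 was dropped and also (0.216) when EpCAM-negative replicate 1 was. With replicate numbers as a replicate block it was -0.554 (paired exact p = 0.5, the smallest possible); nothing says that the numbers pair the libraries. Small peaks limit the members: an EpCAM-negative peak just under threshold cannot be told from none.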
